A study of Mus musculus with 14 samples.

Results

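The response to a low-fat (LF) meal was examined at its latest time point, 3 h after the meal began (LF3h), against the fasting condition. The comparison used 4 of the 14 mouse microarrays of the series, namely the 2 arrays of the LF3h pool and the 2 arrays of the Fasting pool, and all probe sets other than the Affymetrix controls. The mice were male C57BL6 animals, 12 wk old, acclimated to a LF diet and then fasted for 12 h in the dark. Fasting mice received no meal. The meal of LF3h mice supplied 10% of calories as fat, 70% as carbohydrate and 20% as protein. The 3 h pool of a high-fat (HF) meal (HF3h, with 60% of calories as fat, 20% as carbohydrate and 20% as protein) and the 1 h pool of the LF meal (LF1h) were used as comparators. RNA from the scraped duodenal mucosa of 20 mice was pooled for each group, and the pool was hybridised to 2 arrays. No other pool was made, so all p-values cover array error and leave out the variation between mice.

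The duodenum is the first stretch of intestine to meet a meal. Its absorptive enterocytes take up sugars, amino acids, iron, calcium and lipids, and they can also make glucose during a fast. Insulin after a meal keeps FOXO transcription factors out of the nucleus, whereas glucocorticoids and cAMP, acting through the glucocorticoid receptor and CREB, favour the fasting programme. ChREBP, the product of Mlxipl, and its partner Mlx switch on genes when sugar phosphates accumulate. Heat shock factor 1 switches on cytosolic chaperones when proteins misfold or when their synthesis increases.

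The values were log2 intensities from Robust Multiarray Analysis, made by the authors. The array medians were between 4.474 and 4.554, and the arrays of a pool correlated at 0.9971 in both pools compared here. Enterocyte identity was clear in both pools. The 7 measured genes of Vil1, Alpi, Fabp1, Fabp2, Sis, Apoa1, Apoa4 and Rbp2 had means of at least 12.06 in the fasting condition and 12.08 at LF3h, with log2 fold changes between -0.02 and 0.24. The difference between the 3' and 5' probe sets of beta-actin, a sign of RNA integrity, was 0.475 and 0.501 on the Fasting arrays and 0.398 and 0.397 on the LF3h arrays, the lowest of the 14. For Gapdh it was 0.0677 and 0.0945 against -0.0351 and -0.0303, also the lowest. The part of this shift in the results below was not tested.

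At LF3h, the chaperone genes Hspa1b and Hsph1 had the largest rises, and Pck1 and Pdk4, of glucose production and pyruvate use, the largest falls. A probe set was called modulated at an adjusted p under 0.05 from limma and at least a 2-fold change. By this rule 66 of 45037 probe sets rose (0.147%) and 36 fell (0.0799%). They stood for 60 named genes, 40 up and 20 down. In 42 of these genes the brightest probe set, which represents a gene throughout, was itself modulated, with 25 genes up (0.137%) and 17 down (0.0934%) of 18193. In all 42 the LF3h arrays lay beyond both Fasting arrays. The calling rule nearly requires this, so it is not separate support for the calls. On the adjusted p alone, 570 genes were higher (3.13%) and 415 lower (2.28%), and these are the backgrounds for the counts of list members that follow. The median log2 fold change of all genes was -0.02. Where the mean of 1 pool was under a log2 value of 6, close to background, the log2 fold change is given as a lower bound with "at least" or "or lower". Where both means were under 6, this is said beside the value. Other probe sets are given for some genes only, as measured. In RNA from whole mucosa, fewer cells of a type and less RNA per cell cannot be told apart.

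**Figure D1:**
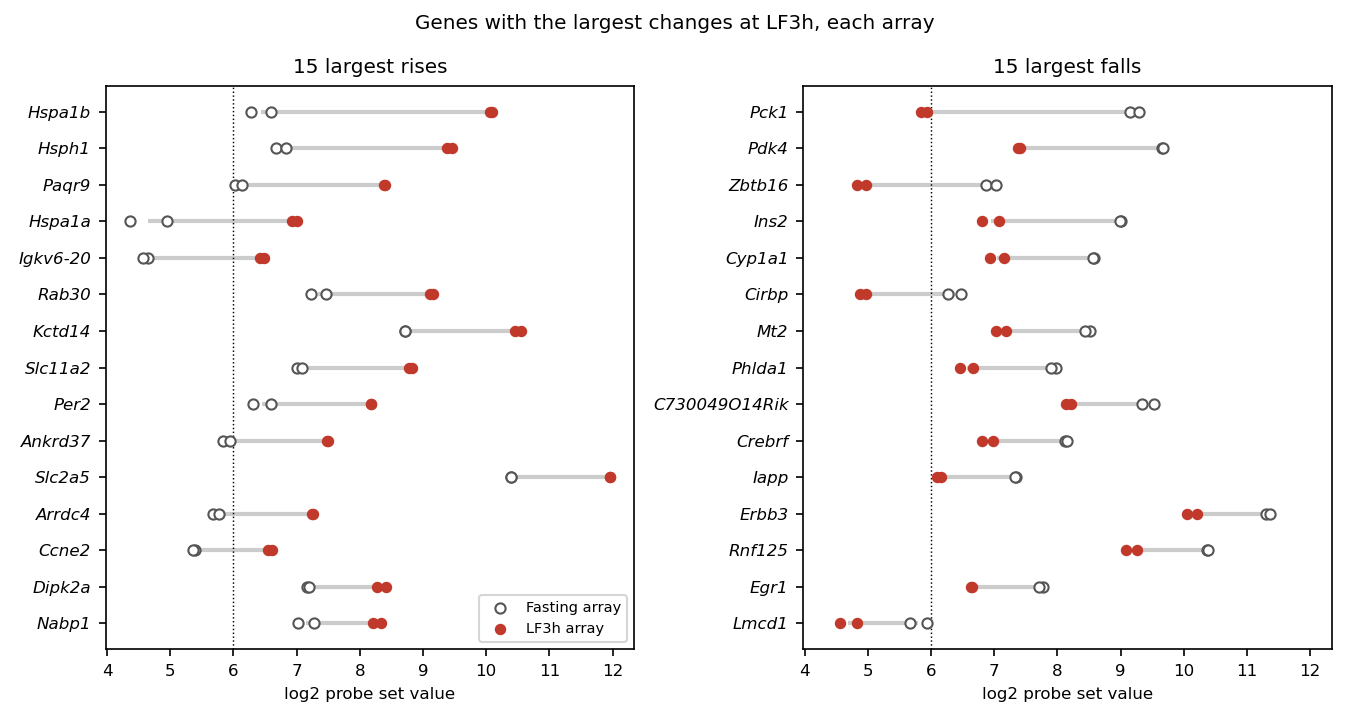
Log2 probe set values on each Fasting array (open circles) and each LF3h array (filled circles) for 30 genes, the 15 most raised and the 15 most lowered, with grey bars joining the pool means and a dotted line at a log2 value of 6. The genes were chosen among those whose pools did not overlap. Hspa1b and Pck1 moved the furthest, with log2 fold changes of 3.64 and -3.33 or lower.

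Heat shock proteins rose in large part. Of 31 measured heat shock proteins and co-chaperones, 20 rose and none fell, with a median log2 fold change of 0.46. Members of the Hsp70, Hsp110 and Hsp90 machinery led the list. Hspa1b, an inducible Hsp70, was at 6.27 and 6.6 on the Fasting arrays and at 10.07 and 10.09 on the LF3h arrays. Its log2 fold change was 3.64 (SE 0.12, adjusted p = 8.9e-10 from limma), a 12.5-fold rise, and its other probe sets gave 3.7 and 3.91. Hspa1a, its near-identical neighbour, was at 4.36 and 4.95 in the fasting condition and at 7 and 6.93 at LF3h, a rise of at least 2.31. Probes of these copies can detect either transcript, so the 2 genes are not separate evidence. Hsph1, an Hsp110 nucleotide exchange factor of Hsp70, was at 6.67 and 6.84 in the fasting condition and at 9.38 and 9.46 at LF3h, with a log2 fold change of 2.67 (SE 0.09, adjusted p = 8.7e-10). Chordc1, an Hsp90 co-chaperone, was at 8.17 and 8.25 in the fasting condition and at 9.22 and 9.25 at LF3h, a rise of 1.02. The remaining risers of the list had log2 fold changes between 0.35 and 0.96. Without 1 of the 4 arrays the count was 14 to 17, and the median stayed between 0.46 and 0.49. In such a fit the lone array of a pool is assumed to vary like the other pools.

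The heat shock genes did not all follow the same time course. Hspa1b was already at a pool mean of 9.02 at 30 min and 10.04 at LF1h, and LF3h differed from LF1h by 0.04 (adjusted p = 0.93). Hsph1 stood at 7.71 at 30 min and 8.77 at LF1h and gained a further 0.64 by LF3h (adjusted p = 0.0013). The HF meal gave similar levels at 3 h, 9.74 for Hspa1b (HF3h minus LF3h -0.33, SE 0.12, adjusted p = 0.21) and 9.23 for Hsph1 (-0.19, SE 0.09, adjusted p = 0.32). Hspa1a and Chordc1 had differences of -0.26 (SE 0.16, adjusted p = 0.46) and -0.08 (SE 0.1, adjusted p = 0.74).

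The promoters of these genes are shown because heat shock factor binds inverted repeats of GAA. Windows of 250 bases upstream of the annotated start were taken from RefSeq (GRCm38.p6), which had one for 14452 of the 18193 genes, including 16 of the 25 risers and 9 of the 17 fallers. The letters GAANNTTC, searched on both strands, occur in 2 of the 16 risers (12.5%) and in 6.62% of all windows, and TTCNNGAA occurs in 1 (6.25%) and in 7.49%. The 2 patterns can overlap in longer arrays of the repeat. The riser windows with GAANNTTC are those of Hspa1a and Hspa1b, at position -104 in each, and the 2 windows are identical at 247 of 250 positions. Hsph1 holds TTCNNGAA at position -33. Capitals below mark these matches in the windows of Hspa1b (chr17:34959239-34959488, minus strand) and Hsph1 (chr5:149636337-149636586, minus strand, 1 of its 2 listed starts).
Hspa1b: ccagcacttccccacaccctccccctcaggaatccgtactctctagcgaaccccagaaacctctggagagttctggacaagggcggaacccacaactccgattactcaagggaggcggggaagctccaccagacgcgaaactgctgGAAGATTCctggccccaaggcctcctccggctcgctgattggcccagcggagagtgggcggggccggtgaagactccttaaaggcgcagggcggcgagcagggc
Hsph1: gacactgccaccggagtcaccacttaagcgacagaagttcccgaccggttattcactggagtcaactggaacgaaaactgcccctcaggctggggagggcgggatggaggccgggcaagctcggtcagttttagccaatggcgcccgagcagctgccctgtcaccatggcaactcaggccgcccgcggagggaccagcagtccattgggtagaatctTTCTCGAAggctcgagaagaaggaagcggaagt
A match is a stretch of letters only and does not show that a factor was bound.

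**Figure D2:**
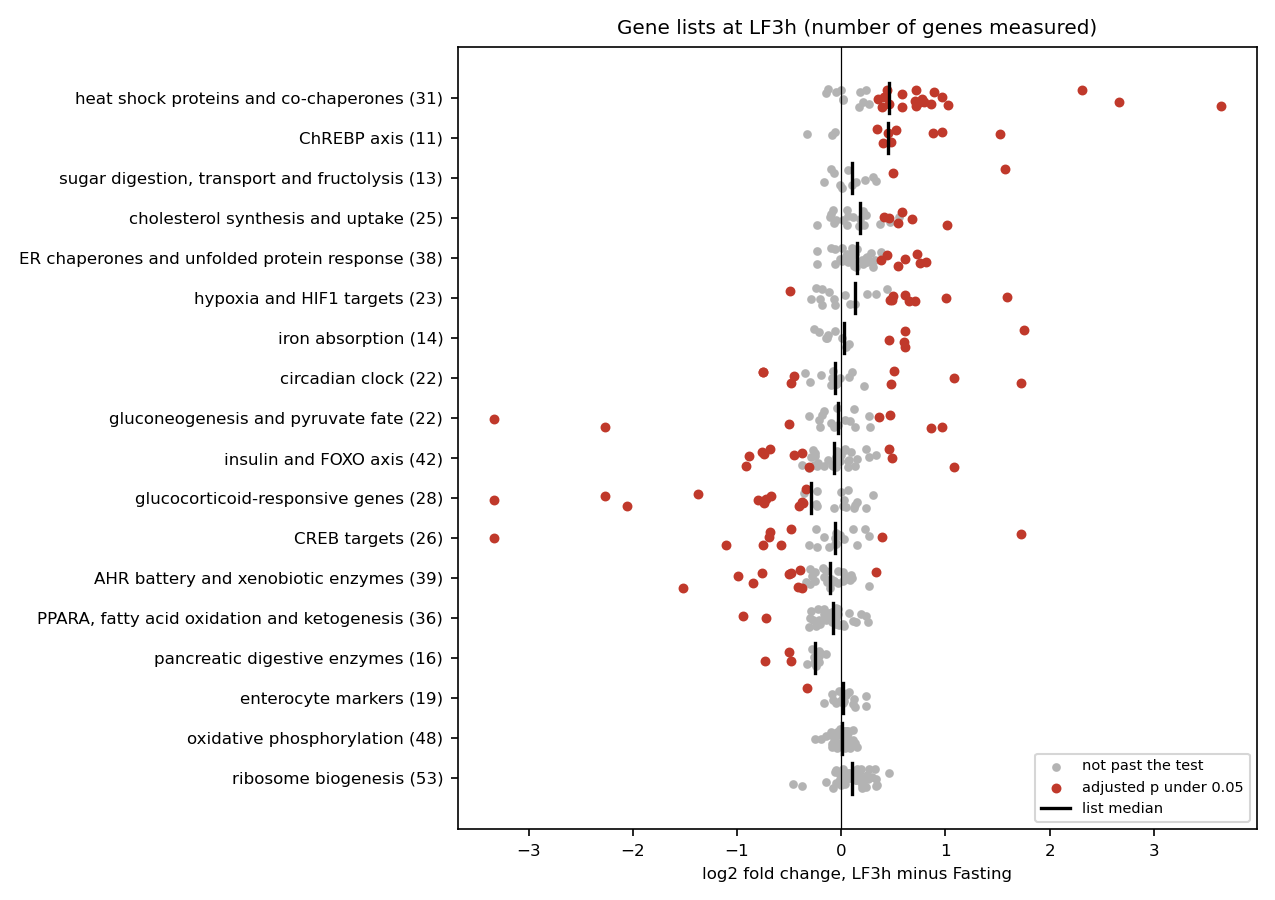
Log2 fold change (LF3h minus Fasting) of every measured gene in 18 gene lists, with list sizes in brackets, genes at an adjusted p under 0.05 in red and list medians as black bars. Heat shock genes and the ChREBP axis lie to the right (medians 0.46 and 0.45), glucocorticoid-responsive genes to the left (median -0.29), and oxidative phosphorylation around 0.

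Genes that respond to sugar rose. Of 11 measured genes of the ChREBP axis, 8 rose and none fell, with a median of 0.45. Arrdc4, an alpha-arrestin that restrains glucose uptake, was at 5.68 and 5.78 on the Fasting arrays and at 7.26 and 7.25 on the LF3h arrays. Arrdc4 thus rose by at least 1.53 (adjusted p = 5.2e-07), and its other probe set gave 0.63. Txnip, its relative, was at 9.86 and 9.74 in the fasting condition and at 10.66 and 10.71 at LF3h, a rise of 0.88 (SE 0.09, adjusted p = 5.7e-05), and its other probe set gave 1.21. G6pc, the catalytic subunit of glucose-6-phosphatase, was at 11.3 and 11.35 in the fasting condition and at 12.3 and 12.27 at LF3h, a rise of 0.96 (SE 0.08, adjusted p = 9.2e-06). For all 3 genes the arrays of the 2 pools were well apart. Without 1 of the 4 arrays the count of risers was 4 or 5, and the median stayed between 0.41 and 0.49. Tmem158 (0.52 or more), a membrane protein, lost its call without any 1 of the 4 arrays (adjusted p from 0.055 to 0.13), whereas Arrdc4, Txnip and G6pc kept theirs.

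Of the genes of fructose handling, 2 rose. Slc2a5, which encodes the fructose transporter GLUT5, had values of 10.39 and 10.39 on the Fasting arrays and 11.96 and 11.97 on the LF3h arrays, a 2.97-fold rise (log2 fold change 1.57, SE 0.08, adjusted p = 8.2e-08). Tkfc, the triokinase of fructolysis, rose by 0.49 (SE 0.08, adjusted p = 0.003). These were the 2 called of the 13 measured genes of sugar digestion, transport and fructolysis, and none fell. Khk, the ketohexokinase that starts fructolysis, had a log2 fold change of 0.1 (adjusted p = 0.6). The glucose transporters Slc5a1 (SGLT1) and Slc2a2 (GLUT2) had -0.16 (adjusted p = 0.31) and 0.3 (adjusted p = 0.056), and the disaccharidases Lct, Treh and Mgam had -0.01, -0.07 and 0.06 (adjusted p = 0.97, 0.76 and 0.79). Pklr, the pyruvate kinase of liver and intestine, rose by 0.45 (adjusted p = 0.006, but 0.067 without Fasting replicate 2 and 0.076 without LF3h replicate 2). Its other probe sets gave 0.4 and 0.02, the latter at 9.47 and 9.49 in the 2 pools (adjusted p = 0.95). Pklr was the only 1 of 18 glycolytic genes called.

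The E-box CACGTG, 1 building block of the element that ChREBP and its relatives bind, occurs in 3 of the 16 riser windows (18.8%), 1 of the 9 faller windows (11.1%) and 8.73% of all windows. The risers are Arrdc4, Insig1 and Hsph1, the last only in the window of its other listed start (position -19), which is not shown. Capitals mark the E-box in Arrdc4 (chr7:68749239-68749488, minus strand, position -193) and in Insig1 (chr5:28071162-28071411, plus strand, position -101), a sterol-regulated gene described further on.
Arrdc4: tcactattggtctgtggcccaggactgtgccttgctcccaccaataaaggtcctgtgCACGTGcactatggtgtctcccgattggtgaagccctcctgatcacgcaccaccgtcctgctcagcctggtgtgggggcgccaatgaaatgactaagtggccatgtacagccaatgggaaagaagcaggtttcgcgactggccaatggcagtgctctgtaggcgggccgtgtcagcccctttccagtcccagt
Insig1: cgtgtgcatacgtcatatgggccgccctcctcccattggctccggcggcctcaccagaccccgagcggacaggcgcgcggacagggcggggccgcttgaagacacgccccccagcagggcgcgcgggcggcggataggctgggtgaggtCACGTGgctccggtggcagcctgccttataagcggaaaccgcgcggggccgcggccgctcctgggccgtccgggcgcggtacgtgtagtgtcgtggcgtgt
Other motifs were rare in these windows. The CRE TGACGTCA occurs in Lmcd1 and in no other of the 25 windows of modulated genes (2.5% of all windows), and the insulin response letters TGTTTTG in Cirbp (5.02%). The FOXO letters GTAAACA (3.04% of all windows), the glucocorticoid receptor letters AGAACA (14.7%), the sterol element SRE (0.194%), the D-box TTATGTAA (0.747%) and the ERSE of the unfolded protein response (0.131%) occur in none of the 25 windows. The GC box GGGCGG occurs in 12 of the 16 risers, 3 of the 9 fallers and 53.4% of all windows. Absence says only that these letters were not in the window.

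Genes of glucose production moved in opposite directions at different steps. Pck1, the cytosolic phosphoenolpyruvate carboxykinase, was at 9.15 and 9.3 on the Fasting arrays and at 5.84 and 5.94 on the LF3h arrays. Its log2 fold change was -3.33 or lower (adjusted p = 7e-10), the largest fall among modulated genes. Of its other 2 probe sets, 1 gave -3.03, and the other, at 2.63 and 2.68 in the 2 pools, was too dim in both to show a change. Pdk4, the kinase that shuts the pyruvate dehydrogenase complex, was at 9.66 and 9.66 in the fasting condition and at 7.38 and 7.41 at LF3h (log2 fold change -2.27, SE 0.08, adjusted p = 1.9e-09). Pdhb, a subunit of that complex, rose by 0.86 (SE 0.09, adjusted p = 8.4e-05), from 9.3 and 9.34 to 10.19 and 10.17. At the last step G6pc rose, as did Slc37a4, the carrier that brings glucose 6-phosphate to it, by 0.36 (adjusted p = 0.023). In all, 4 of 22 genes of gluconeogenesis and pyruvate fate rose and 3 fell, with a median of -0.04.

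The other steps of the pathway gave small values. Fbp1, the fructose bisphosphatase, had 0.27 (adjusted p = 0.09), Pcx, the pyruvate carboxylase, 0.03 (adjusted p = 0.91), and Pck2, the mitochondrial carboxykinase, -0.16 with both pools under 6 (adjusted p = 0.39). Among the kinases related to Pdk4, Pdk2 had -0.31 (adjusted p = 0.066), Pdk1 -0.19 (adjusted p = 0.39) and Pdk3 -0.07 with both pools under 6 (adjusted p = 0.84). Pdhx, a scaffold protein of pyruvate dehydrogenase, rose by at least 0.46, and Pdp1, its phosphatase, fell by 0.5 with both pools under 6. Pdhx, Pdp1 and Slc37a4 lost their calls without 1 array, for Pdp1 any of the 4 (adjusted p from 0.087 to 0.19) and for the others Fasting replicate 1, Fasting replicate 2 or LF3h replicate 2 (Pdhx 0.051 to 0.07, Slc37a4 0.11 to 0.2). The counts were then 2 to 4 up and 2 down.

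Genes of the insulin and FOXO axis fell more often than they rose, with 8 of 42 down and 3 up and a median of -0.07. Bcl2l11, a pro-apoptotic BH3 protein, was at 10.3 and 10.37 in the fasting condition and at 9.37 and 9.48 at LF3h (log2 fold change -0.91, SE 0.08, adjusted p = 2.6e-05). Sesn1, a stress-inducible brake on mTORC1, was at 9.9 and 9.89 and then at 8.94 and 9.09 (-0.88, SE 0.09, adjusted p = 4.5e-05). Fbxo32, a ubiquitin ligase known as atrogin, fell by 0.76 with both pools under 6. All 3 are known to be switched on by FOXO factors, and the Fasting and LF3h arrays did not overlap for any of them. Trib3, a pseudokinase that restrains AKT, went the other way and rose by at least 1.08 (adjusted p = 0.00013). The authors describe the promoter of glucose-6-phosphatase as stimulated by FOXO1, and its gene G6pc also rose, by 0.96 (adjusted p = 9.2e-06). Without any 1 of the 4 arrays, 4 or 5 genes were called down and 2 or 3 up.

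All calls among the glucocorticoid-responsive genes were falls. Of 28 measured, 13 fell, none rose and 15 were not called, and the median was -0.29. Zbtb16, the zinc finger factor PLZF, was at 6.88 and 7.03 on the Fasting arrays and at 4.82 and 4.97 on the LF3h arrays, a fall of at least 2.06 (adjusted p = 4.3e-06). Its other probe sets, under 6 in both pools, gave changes between -1.26 and -0.58. Mt2, a metallothionein, was at 8.52 and 8.44 and then at 7.19 and 7.02 (-1.38, SE 0.1, adjusted p = 2.5e-06), and Mt1 went from 10.21 and 10.16 to 9.37 and 9.4 (-0.8, SE 0.08, adjusted p = 8.2e-05). Errfi1, a feedback inhibitor of the EGF receptor, fell by 0.67 (SE 0.09, adjusted p = 0.00062), and its other probe set gave -0.26 (adjusted p = 0.2). Pck1, Pdk4, Per1 and Angptl4 are in this list too and are described under their own pathways. Without 1 of the 4 arrays, whichever it was, 8 genes were called, and the median stayed between -0.32 and -0.26. The list of 26 CREB targets shares Pck1, Per1 and other genes with it, and had 7 down and 2 up (5 or 6 down and 1 or 2 up without 1 array).

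Several of these falls came after 1 h. Zbtb16 still had a mean of 6.73 at LF1h against 6.96 in the fasting condition (adjusted p = 0.63), and it dropped by at least 1.83 between LF1h and LF3h (adjusted p = 1.2e-05). Mt1 was higher than in the fasting condition at LF1h (10.66, a rise of 0.47, adjusted p = 0.0079) and then fell by 1.28 to LF3h (adjusted p = 8.4e-07). Errfi1 and Mt2 were within 0.06 of their fasting means at LF1h. Of the 28 genes, 9 were lower and 1 higher at LF3h than at LF1h (6 or 7 lower without 1 array), against 1.71% lower and 1.08% higher among all genes.

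**Figure D3:**
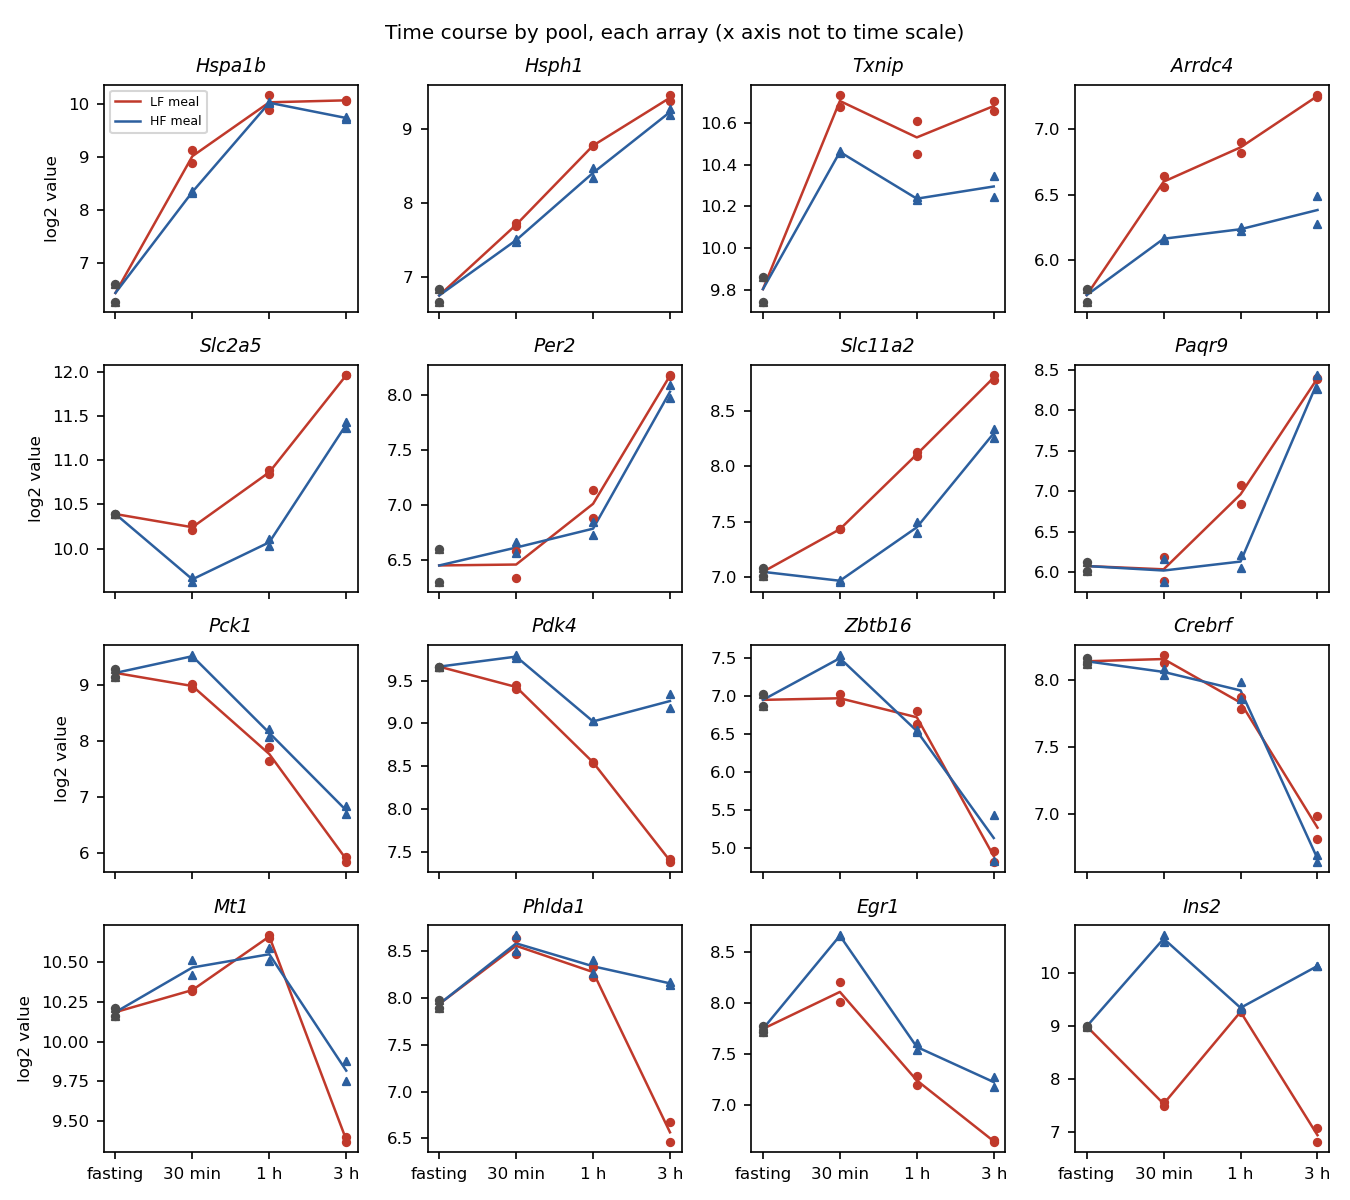
Log2 value on each array for 16 genes at fasting, 30 min, 1 h and 3 h (axis not to scale) with the LF meal as red circles and the HF meal as blue triangles, with lines through the pool means and fasting arrays in grey. Hspa1b and Txnip had risen by 30 min, Per2 and Paqr9 were highest at 3 h, and Mt1, Phlda1 and Egr1 were at or above the fasting level at 30 min and below it at LF3h.

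The circadian clock genes were split, with 4 of 22 up and 4 down and a median of -0.06. All groups were killed in the same part of the day, with the start of the meal shifted. Per2, a repressor of the clock, was at 6.3 and 6.6 on the Fasting arrays and at 8.17 and 8.18 on the LF3h arrays (log2 fold change 1.73, SE 0.12, adjusted p = 2.7e-06), and its other probe sets gave 0.73 and 0.8. Its paralog Per1 went the opposite way, from 6.08 and 6.31 to 5.74 and 5.16, a fall of at least 0.75 (adjusted p = 0.012, but 0.11 to 0.13 without Fasting replicate 2 or LF3h replicate 2). Bhlhe40 (DEC1), a repressor of clock output, was at 9.56 and 9.61 and then at 10.62 and 10.71 (1.08, SE 0.08, adjusted p = 5.5e-06). Per2 gained 1.17 between LF1h and LF3h (adjusted p = 0.00011), whereas Bhlhe40 was already at 10.69 at LF1h.

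Other clock genes gave no call. Arntl (BMAL1) had a log2 fold change of -0.04 (adjusted p = 0.9), Clock 0.22 (adjusted p = 0.31), Nr1d1 (REV-ERBα) -0.1 (adjusted p = 0.7) and the output gene Dbp -0.05 (adjusted p = 0.91), the last 2 with both pools under 6. Of those called, Cry1 (0.51), a repressor, and Hlf (0.47), an output factor, rose, and Npas2 (-0.45), a partner of BMAL1, Nfil3 (-0.49), an output repressor, and Nr1d2 (REV-ERBβ, at least 0.75 down) fell. These 5 calls were lost in some fits without 1 array, for Cry1 without any 1 of the 4 (adjusted p from 0.053 to 0.11), for Hlf without Fasting replicate 1 or LF3h replicate 2 (0.073 to 0.096), for Nfil3 without Fasting replicate 1 or LF3h replicate 1 (0.071 to 0.074), for Npas2 without either Fasting array or LF3h replicate 1 (0.059 to 0.076), and for Nr1d2 without Fasting replicate 2 or either LF3h array (0.057 to 0.083). The counts were then 2 or 3 up and 1 or 2 down.

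Sterol synthesis rose by small amounts. Of 25 genes of cholesterol synthesis and uptake, 6 rose and none fell, with a median of 0.18. Insig1, which retains SREBP in the endoplasmic reticulum when sterols are plentiful and is itself an SREBP target, was at 8.29 and 8.22 in the fasting condition and at 9.16 and 9.39 at LF3h (1.02, SE 0.14, adjusted p = 0.00084). Fdps, the farnesyl diphosphate synthase, rose by 0.68 (SE 0.1, adjusted p = 0.0019), and Hmgcs1, the HMG-CoA synthase, by 0.55 (SE 0.08, adjusted p = 0.0018). Sqle (at least 0.58), Fdft1 (0.46) and Sc5d (0.41) also rose. Cyp51 at 0.55 or more (adjusted p = 0.05), Idi1 at 0.47 (0.056) and Msmo1 at 0.37 (0.065) did not pass. Srebf2 had 0.18 (adjusted p = 0.33). Without Fasting replicate 1 or LF3h replicate 2, 3 genes were called, and 4 without either of the others. Sqle was lost without either Fasting array or LF3h replicate 2 (adjusted p from 0.063 to 0.26), Fdft1 without any 1 of the 4 (0.08 to 0.13), and Sc5d without Fasting replicate 1 or either LF3h array (0.11 to 0.24).

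In fatty acid synthesis, 3 of 19 genes rose and 1 fell. Scd2, a stearoyl-CoA desaturase, was at 5.84 and 6.07 on the Fasting arrays and at 6.99 and 6.95 on the LF3h arrays, a rise of at least 1.02 (adjusted p = 8e-05). Fasn, the fatty acid synthase, rose by 0.65 (SE 0.1, adjusted p = 0.0026) and Mid1ip1, an activator of acetyl-CoA carboxylase, by 0.63 (SE 0.09, adjusted p = 0.0014). Scd1, the paralog of Scd2 that is also abundant in fat tissue, was lower by at least 0.47 (adjusted p = 0.014, but 0.054 to 0.13 without any 1 array). The 14 adipocyte markers had a summed level, the log2 of the sum of the unlogged intensities, of 10.29 and 10.34 in the fasting condition and 10.34 and 10.43 at LF3h. The part of fat tissue in this value was not tested.

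Fat oxidation genes changed little. Of 36 genes of PPARα, fatty acid oxidation and ketogenesis, 2 fell and none rose (median -0.08). In the test of probe sets above a log2 value of 6, 7 fell and 2 rose, and the shares of all genes do not apply there. Ppara itself was at 9.23 and 9.09 in the fasting condition and at 8.17 and 8.27 at LF3h (-0.94, SE 0.09, adjusted p = 3.1e-05). Angptl4, an inhibitor of lipoprotein lipase, was at 8.96 and 8.89 and then at 8.2 and 8.21 (-0.72, SE 0.08, adjusted p = 0.00012), and its other probe set, at 2.48 and 2.45 in the 2 pools, was too dim in both to show a change. Lpin2, a phosphatidate phosphatase of triglyceride synthesis, fell by 0.94 (SE 0.09, adjusted p = 4e-05), from 9.25 and 9.11 to 8.18 and 8.29. It was the 1 gene of 39 of triglyceride and chylomicron assembly that was called down. Another 4 were called up at log2 fold changes of at most 0.36, and 0 were called up by limma without any 1 of the 4 arrays (8 at an unadjusted p under 0.05 with all arrays).

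Some genes of iron handling rose. Slc11a2, the apical iron transporter DMT1, was at 7.01 and 7.09 in the fasting condition and at 8.78 and 8.82 at LF3h, a 3.37-fold rise (log2 fold change 1.75, SE 0.08, adjusted p = 3e-08). Its other 3 probe sets gave between -0.04 and 1.7, so not every transcript form that the probes detect need have risen. Cybrd1, the ferric reductase of the brush border, rose by 0.6 (SE 0.1, adjusted p = 0.0035, but 0.054 without Fasting replicate 1). Flvcr1, a heme exporter, and Hif1a, an oxygen-regulated transcription factor, rose by 0.61 each (adjusted p = 0.0015 for each). In all, 5 of 14 iron genes rose and none fell, with a median of 0.03. Without Fasting replicate 1 the count was 3, and without any other array 4 or 5. At LF3h, 5 genes of the list were higher than at LF1h and none was lower, where 1.08% of all genes were higher and 1.71% lower. The number higher depended on which array was left out.

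Calcium and zinc genes went otherwise. Vdr, the vitamin D receptor, was at 10.8 and 10.87 on the Fasting arrays and at 9.85 and 9.9 on the LF3h arrays (-0.96, SE 0.08, adjusted p = 1.9e-05). Cldn2, a claudin of leaky tight junctions, had -0.37 (adjusted p = 0.034, but 0.098 to 0.24 without any 1 array), and no other of the 11 calcium genes was called. Slc30a1, which exports zinc from the cell, rose by 0.76 (SE 0.08, adjusted p = 0.00012), from 8.39 and 8.45 to 9.14 and 9.22. Slc30a4, another zinc exporter, fell by 0.45 (adjusted p = 0.0068, but 0.071 to 0.073 without Fasting replicate 1 or LF3h replicate 2). With Mt1 and Mt2, 3 of 19 metallothioneins and zinc transporters fell and 3 rose (median 0.06). Without 1 array, 2 or 3 fell and 1 or 2 rose, with 1 rise without any array other than LF3h replicate 1.

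Chaperones of the endoplasmic reticulum rose with those of the cytosol but by less. Of 38 genes, 7 rose and none fell, with a median of 0.15. The count was 5 without Fasting replicate 2, 4 without any other array, and 15 when only probe sets above a log2 value of 6 were tested. The shares of all genes do not apply to the last of these counts. Creld2 was at 7.65 and 7.64 in the fasting condition and at 8.4 and 8.52 at LF3h (0.82, SE 0.08, adjusted p = 6.1e-05). Hspa5 (BiP), the main Hsp70 of this compartment, rose by 0.75 (SE 0.08, adjusted p = 0.00013), and its other probe sets gave 0.94 and -0.03. Manf, a secreted stress protein, rose by 0.73 (SE 0.08, adjusted p = 0.00018) and Dnajb9, a co-chaperone of BiP, by 0.62 (SE 0.08, adjusted p = 0.00085). In the ATF4 amino acid response, 4 of 28 genes rose. They were Trib3, Slc38a2 (0.62), a neutral amino acid transporter, Atf4 itself (0.54), and Chac1 (0.66), which was lost without Fasting replicate 2 or either LF3h array (adjusted p from 0.1 to 0.23). The median of the list was 0, and both pools were under 6 for Chac1.

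Of 23 hypoxia and HIF1 targets, 8 rose and 1 fell, with a median of 0.14 (5 up without Fasting replicate 1 and 6 without any other array). Ankrd37, an ankyrin repeat protein, was at 5.84 and 5.95 in the fasting condition and at 7.49 and 7.48 at LF3h, a rise of at least 1.59 (adjusted p = 5.4e-07). Ero1a, an oxidase that forms disulfide bonds in the endoplasmic reticulum, was at 7.87 and 7.99 and then at 8.9 and 8.97 (1, SE 0.09, adjusted p = 3.3e-05). P4ha1, a collagen hydroxylase with both pools under 6, and Adm, adrenomedullin, were called as well (0.71 and at least 0.65), the first not without either Fasting array or LF3h replicate 1 (adjusted p from 0.056 to 0.15) and the second not without Fasting replicate 2 or LF3h replicate 1 (0.057 for each). Glycolytic genes, which HIF1 also drives, were not called apart from Pklr.

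Genes of xenobiotic defence fell. Of 39, 9 fell and 1 rose, with a median of -0.11 (5 down without Fasting replicate 1 and 6 without any other array, with none up). Cyp1a1, the main target of the aryl hydrocarbon receptor, was at 8.57 and 8.56 on the Fasting arrays and at 6.93 and 7.16 on the LF3h arrays (-1.52, SE 0.1, adjusted p = 2e-06). It had reached 7 at 30 min and stood at 7.72 at LF1h. Abcc2, an apical exporter of conjugates, was at 10.5 and 10.61 and then at 9.58 and 9.55 (-0.99, SE 0.09, adjusted p = 3.3e-05). Gclc, the catalytic subunit of the first enzyme of glutathione synthesis, fell by 0.85 (SE 0.09, adjusted p = 0.00011) and Cyp2c55 by 0.76 (SE 0.08, adjusted p = 7.3e-05). Of 26 bile acid and nuclear receptor genes, 4 fell and 2 rose, with a median of -0.07 (3 or 4 down and 0 or 1 up without 1 array). Abcg8, a subunit of the apical sterol exporter, was at 10.72 and 10.63 in the fasting condition and at 9.74 and 9.77 at LF3h (-0.92, SE 0.08, adjusted p = 2.9e-05). Nr1i2, the xenobiotic receptor PXR, fell by 0.66 (SE 0.09, adjusted p = 0.00096) and Abca1, a cholesterol exporter, by 0.63 (SE 0.09, adjusted p = 0.0013). The other probe sets of Abca1 gave -0.27 and 0.16.

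Immediate early genes were called in both directions. Egr1 was at 7.78 and 7.72 in the fasting condition and at 6.63 and 6.65 at LF3h (-1.11, SE 0.09, adjusted p = 9.3e-06), and Fos went from 11.47 and 11.43 to 10.71 and 10.81 (-0.69, SE 0.08, adjusted p = 0.00022). Klf10, which also responds to TGFβ, went the other way, from 7.07 and 7.08 to 7.86 and 8 (0.85, SE 0.1, adjusted p = 0.0003). In all, 6 of 40 immediate early genes fell and 3 rose (median -0.11), and 12 were lower and none higher at LF3h than at LF1h (8 to 10 lower without 1 array). Among all genes, 1.71% were lower and 1.08% higher at LF3h than at LF1h. Phlda1, a growth factor-responsive gene, was at 7.97 and 7.89 in the fasting condition and then at 6.67 and 6.46 (-1.37, SE 0.1, adjusted p = 5.5e-06). Erbb3, a receptor of neuregulins, was at 11.31 and 11.37 and then at 10.06 and 10.21 (-1.21, SE 0.08, adjusted p = 2.1e-06). Its other probe set, under 6 at LF3h, gave -0.56. Without Fasting replicate 1, 3 immediate early genes were called down, and 4 without any other array.

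The remaining genes with large changes stood apart from the lists above. Paqr9, a membrane protein of the adiponectin receptor family, was at 6.02 and 6.13 in the fasting condition and at 8.4 and 8.39 at LF3h (2.32, SE 0.13, adjusted p = 2.1e-07), and gained 1.43 of this after LF1h (adjusted p = 2.3e-05). Rab30, a small GTPase of the Golgi apparatus, was at 7.23 and 7.46 and then at 9.12 and 9.16 (1.79, SE 0.1, adjusted p = 1.7e-07), with 0.52 from its other probe set, which was under 6 in both pools. Kctd14 was at 8.72 and 8.72 and then at 10.45 and 10.56 (1.79, SE 0.08, adjusted p = 2.7e-08), and its other 3 probe sets gave 1.68 to 2.07. Dipk2a rose by 1.17 and Nabp1, a single-stranded DNA-binding protein, by 1.12. Ccne2, the S-phase cyclin E2, rose by at least 1.2, but 3 of 48 cell cycle genes were called in all. Igkv6-20, an immunoglobulin segment, rose by at least 1.84 (adjusted p = 0.00013), while 1 of 15 B and plasma cell markers was called. These genes were chosen among those whose 2 pools did not overlap.

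Among the fallers of this kind, Crebrf, which promotes the breakdown of CREB3 factors, was at 8.11 and 8.16 on the Fasting arrays and at 6.81 and 6.98 on the LF3h arrays (-1.24, SE 0.09, adjusted p = 3e-06). Cirbp, an RNA-binding protein induced by cold, was at 6.48 and 6.28 and then at 4.88 and 4.97, a fall of at least 1.45 (adjusted p = 1.1e-05). Rnf125, a ubiquitin ligase, fell by 1.2 (SE 0.08, adjusted p = 2.6e-06), the uncharacterised C730049O14Rik by 1.26 (SE 0.12, adjusted p = 5e-05) and Lmcd1, a LIM domain protein, by 1.1 with both pools under 6 (adjusted p = 0.00063).

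Several other groups gave few or no calls. Of 48 oxidative phosphorylation genes 0 were called by limma (2 at an unadjusted p under 0.05), with a median of 0.01. No gene was called among 53 of ribosome biogenesis (10 at an unadjusted p under 0.05, median 0.1), 17 of goblet and Paneth cells (0), 16 of T cells and innate lymphoid cells (4), 22 of myeloid cells (2) and 14 of glycogen metabolism (1). Of 19 enterocyte markers, Anpep, the aminopeptidase N of the brush border, was called at -0.33 (adjusted p = 0.042, but 0.088 to 0.24 without any 1 array). No share of all genes at an unadjusted p under 0.05 is given here, so those counts do not show that a list stood out. A value that misses the threshold does not show that a gene was unchanged.

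Genes of the pancreas and stomach differed between the pools as well. The duodenal scraping could carry such tissue or its RNA. The hormone genes Ins2, insulin 2, and Iapp, islet amyloid polypeptide, were the clearest. Ins2 was at 9 and 8.99 in the fasting condition and at 6.81 and 7.07 at LF3h (-2.05, SE 0.09, adjusted p = 3e-08), and Iapp went from 7.35 and 7.33 to 6.1 and 6.15 (-1.22, SE 0.14, adjusted p = 0.00028). Of 14 islet genes these 2 were called, 11 of the 14 were under a log2 value of 6 in 1 of the pools, and the summed level of the list was 10.25 and 10.21 against 9.54 and 9.58. For 16 pancreatic digestive enzymes the summed level was 16.32 and 16.32 in the fasting condition and 16.06 and 16.08 at LF3h. All 16 had negative changes (median -0.25, from -0.73 to -0.15), and 3 were called (2 or 3 without 1 array, and 15 when only probe sets above a log2 value of 6 were tested), with Clps, the colipase, at 12.04 and 12.09 and then at 11.61 and 11.56 (-0.48, SE 0.08, adjusted p = 0.0033). Other acinar genes had 4 of 23 called down (2 without any 1 array), and stomach and Brunner gland markers 3 of 16 down and 1 up (0 or 1 down and 0 up without 1 array). Of the 42 modulated genes, Ins2 and Iapp were the only ones in these 4 lists, which hold 69 of the 18193 genes. The shares of all genes do not apply to the 15 enzymes called among probe sets above a log2 value of 6. The part of other tissue in the remaining results was not tested.

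Set against LF1h, the response was still under way at LF3h. Of the 25 risers, 18 were higher at LF3h than at LF1h and none was lower, and of the 17 fallers 16 were lower and none was higher, where 1.08% of all genes were higher and 1.71% lower. Since the genes were chosen at LF3h, these shares describe them and do not test them. Across all probe sets, 15 rose (0.0333%) and 75 fell (0.167%) between 1 h and 3 h by the 2-fold rule, with 35 rises without LF1h replicate 1. By gene these were 9 up (0.0495%) and 44 down (0.242%). Slc2a5 had a pool mean of 10.24 at 30 min and 10.87 at LF1h before 11.96 at LF3h (LF3h minus LF1h 1.1, SE 0.08, adjusted p = 2.5e-06). Pck1 stepped down from 8.99 at 30 min to 7.77 at LF1h and 5.89 at LF3h, and Pdk4 from 9.43 to 8.54 and 7.4. Vdr, Ppara and Crebrf made most of their fall after 1 h, by 0.64, 0.84 and 0.93 (adjusted p = 0.00079, 9.7e-05 and 4.4e-05). All 16 pancreatic enzymes were lower at LF3h than at LF1h, and the part of this tissue in the other differences was not tested.

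**Figure D4:**
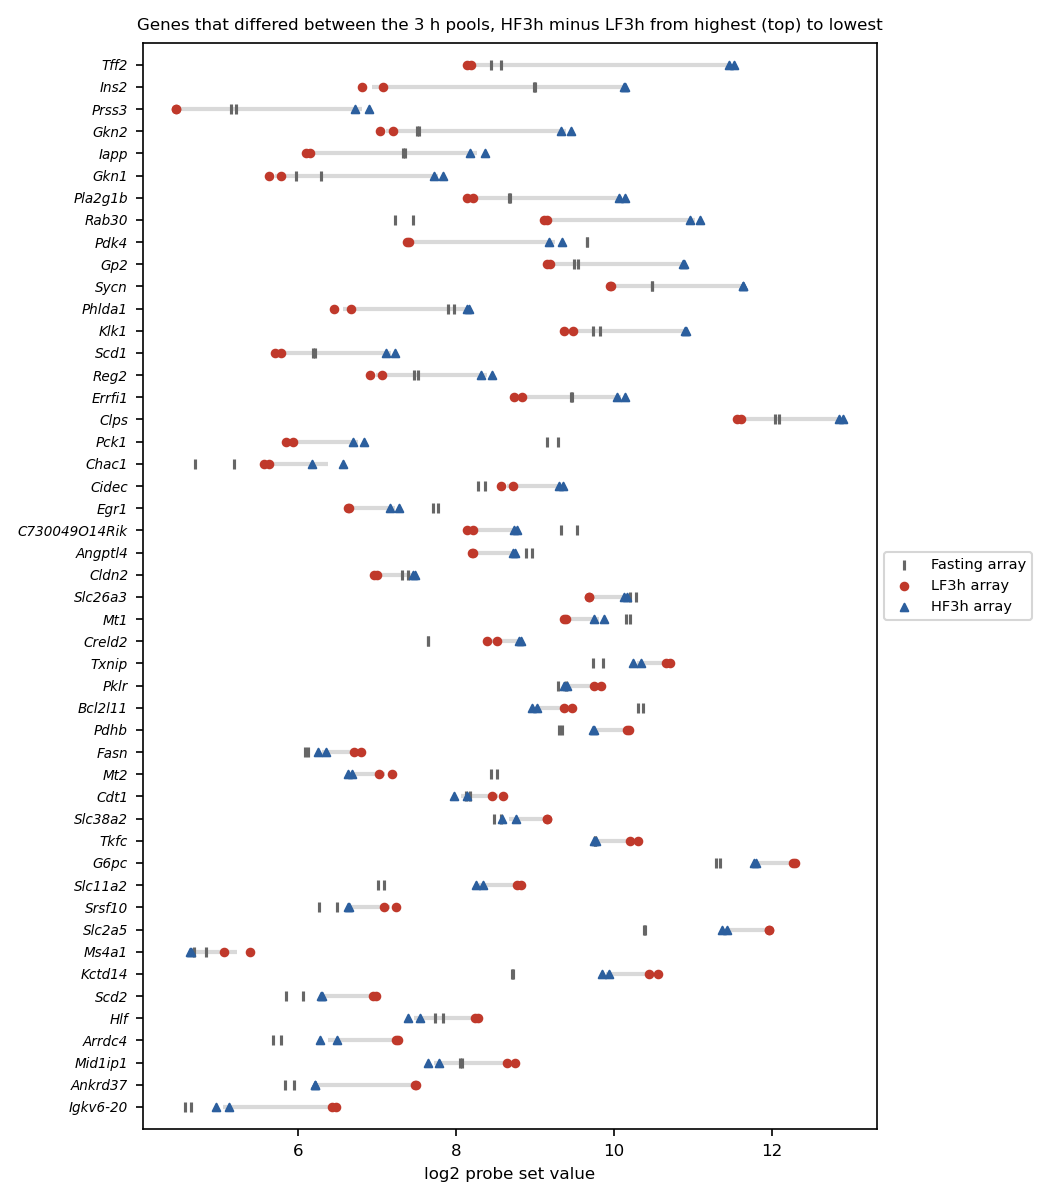
Log2 probe set value on each array of the Fasting (grey ticks), LF3h (red circles) and HF3h (blue triangles) pools for 48 named genes that changed at LF3h and differed between the 3 h pools, ordered by HF3h minus LF3h. Pancreas and stomach genes such as Tff2 and Ins2 fill the top, and Arrdc4, Mid1ip1, Ankrd37 and Igkv6-20 the bottom.

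At 3 h the meals differed in some genes that respond to sugar or handle fat, and most strongly in pancreas and stomach genes. HF3h was above LF3h in 80 probe sets (0.178%) and below it in 8 (0.0178%) by the 2-fold rule, or by gene in 48 (0.264%) and 3 (0.0165%). Several sugar-responsive genes were lower after the HF meal. Its carbohydrate share was 20% of calories, and the part of this share in the differences was not tested. Arrdc4 had a mean of 6.38 at HF3h against 7.26 at LF3h (HF3h minus LF3h -0.87, SE 0.09, adjusted p = 9.7e-05), and G6pc 11.79 against 12.29 (-0.5, SE 0.08, adjusted p = 0.0039). Slc2a5 was at 11.4 against 11.96 (-0.56, SE 0.08, adjusted p = 0.0019). Of the 11 genes of the ChREBP axis 5 were lower and none higher at HF3h, where 1.01% of all genes were lower and 1.19% higher (2 lower without any 1 of the 4 arrays). Txnip and Pklr were among them (-0.39 and -0.4, adjusted p = 0.041 and 0.026) but lost the call without any 1 of the 4 arrays (0.078 to 0.28). Kctd14 and Ankrd37 were lower too, by -0.61 (adjusted p = 0.001) and -1.27 (adjusted p = 3.1e-06). Ankrd37 was not called against the fasting condition after the HF meal (0.32 above the fasting mean, adjusted p = 0.076).

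Lipid genes divided. Mid1ip1 was at 7.72 at HF3h and 8.7 at LF3h (-0.98, SE 0.09, adjusted p = 4e-05), and Scd2 was lower by 0.67 (adjusted p = 0.0039), whereas Scd1 was higher by at least 1.43 (adjusted p = 1.1e-06). The adipocyte markers had a summed level of 10.79 and 10.75 on the HF3h arrays against 10.34 and 10.43 at LF3h. Of these 14 markers, 4 were higher and none lower at HF3h, where 1.19% of all genes were higher. The part of fat tissue in the Scd1 difference was not tested. Pdk4 was at 9.26 at HF3h, which was 1.87 above LF3h (SE 0.08, adjusted p = 2.2e-08) and 0.4 below the fasting mean (adjusted p = 0.0096). Pck1 was at 6.76, which was at least 0.87 above LF3h (adjusted p = 0.00039), and Angptl4 was higher by 0.53 (adjusted p = 0.0022). Of 36 genes of PPARα and fat oxidation, 9 were higher and none lower at HF3h (4 to 6 without 1 array). Rab30 rose further after the HF meal, to 11.03 (1.89 above LF3h, SE 0.1, adjusted p = 8.9e-08), and Dipk2a had 0.35 (SE 0.09, adjusted p = 0.071).

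Other genes gave small differences between the meals. Per2 had a difference of -0.15 (SE 0.12, adjusted p = 0.61), Paqr9 -0.05 (SE 0.13, adjusted p = 0.9), Zbtb16 0.24 with both pools under 6 (SE 0.15, adjusted p = 0.49), Crebrf -0.23 (SE 0.09, adjusted p = 0.23), Erbb3 0.09 (SE 0.08, adjusted p = 0.64) and Vdr 0.12 (SE 0.08, adjusted p = 0.51). These values do not show that the meals acted alike. The largest differences were in pancreas and stomach genes. Of the 48 genes at least 2-fold higher at HF3h, 28 were in the pancreas and stomach lists, which hold 69 of the 18193 genes. The summed level of pancreatic enzymes was 16.97 on both HF3h arrays. All 16 enzymes were higher at HF3h than at LF3h, also without any 1 array. The part of this tissue in the other differences was not tested.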

How the data were processed

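Pooled duodenal mucosa RNA of 20 mice a group was hybridised to Affymetrix mouse genome arrays, 14 in all for 7 pools. The authors subtracted background and normalized the probe sets by Robust Multiarray Analysis, and the deposited log2 values were used as given, with the log base taken from that method. Of 45101 probe sets, 64 controls were set aside. The platform annotation named 1 gene for 34945 of the 45037 tested (18193 genes, 34741 matched by Entrez ID to GRCm38.p6), several for 932 and none for 9160. The probe set with the highest mean over all arrays represented a gene.

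All 14 arrays entered 1 limma fit (version 3.58.1, R 4.3.3) in which every pool had its own mean, which left 7 residual degrees of freedom beside 6.4 from the prior. Benjamini-Hochberg adjustment ran over the probe sets, and those both under an adjusted p of 0.05 and changed by 2-fold or more were called modulated. The number of arrays limits the precision, with a median SE of 0.11. Arrays of equal number were not treated as pairs in this fit. Their deviations from the pool means correlated at -0.187 to 0.151 over the pairs of pools. LF1h had negative values with Fasting, LF30min and LF3h (-0.136, -0.187 and -0.114), and Fasting with LF30min had 0.151. Whether arrays were handled in pairs is not known. The members and the 52 gene lists, written from general knowledge with 1090 distinct measured genes, were chosen with earlier results of these data known, and no set test was run. The genes named are the 15 largest rises and 15 largest falls among modulated genes whose pools did not overlap, at most 4 called genes a list, taken by size of change, and any gene of the lists of cholesterol, clock, gluconeogenesis and sugar. Genes described were picked from these after their values were known.

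On data simulated for LF3h versus Fasting with 45037 probe sets, 50 probe sets were changed at each size. All of these had a fasting mean of at least 6, so recovery of dimmer probe sets was not examined. Only array noise was simulated. The 2-fold rule found 0 of those changed 1.5-fold and 30 of those changed 2-fold, and missed none of those changed 3-fold or 4-fold, at the cost of 1 false call. The adjusted p alone found 38 of those changed 1.5-fold and made 10 false calls. The analysis was repeated with stricter and looser thresholds, without dim probe sets, with trend and robust variances, other scalings and a replicate block. It was also repeated with only the 4 arrays compared, fewer kinds of probe set, and each array left out. Dim probe sets were here those under a log2 value of 6 on at least 1 array of every pool. A probe set could thus be kept through a pool other than those compared. Python 3.11.15 and matplotlib 3.10.9 drew the figures. SAGE data and western blots were not analysed here.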

Additional observations from a re-analysis of the deposited data

Results flagged for a closer look

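Of the genes that differed at least 2-fold between the 3 h pools by limma (48 higher and 3 lower at HF3h), 19 were among those named at LF3h, and their differences are given here (HF3h minus LF3h, log2 scale). In the stomach and gland genes the difference was 3.3241 for Tff2, 2.2752 for Gkn2 and at least 2.0698 for Gkn1. In the islet hormones it was 3.1879 for Ins2 and 2.1468 for Iapp. In the pancreatic enzymes and acinar genes it was at least 2.3523 for Prss3, 1.928 for Pla2g1b, 1.7126 for Gp2, 1.6786 for Sycn, 1.4867 for Klk1, 1.4062 for Reg2 and 1.2964 for Clps. Of the remaining genes, Rab30 differed by 1.8896, Pdk4 by 1.8659, Phlda1 by 1.5893, Scd1 by at least 1.4301 and Errfi1 by 1.299, all higher after the HF meal. Lower after the HF meal were Igkv6-20, by -1.4061 or lower, and Ankrd37, by -1.275. Phlda1 and Errfi1 were below the fasting level at LF3h, and at HF3h Errfi1 was above it by 0.62 (adjusted p = 0.00073) and Phlda1 at 0.22 (adjusted p = 0.3).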

How the results depend on the processing

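LF3h versus Fasting gave 102 modulated probe sets, and totals between 70 and 103 when dim probe sets were dropped, with trend or robust variances, with only the 4 arrays, other scalings, fewer probe sets and a p under 0.01, and 98 to 113 without 1 array. It was 2197 with no fold minimum and 660 at 1.5-fold. HF3h versus LF3h gave 88, with 818 with no fold minimum, 319 at 1.5-fold and 58 without the _s_at, _x_at and _a_at probe sets, and 87 to 95 without 1 array. LF3h versus LF1h gave 90, with 1062, 388 and 54 under the same 3 rules, and 92 to 109 without 1 array. With the replicate number as a block the counts were 102, 88 and 90, and 90 for LF3h versus LF1h with the numbers of LF1h crossed, a pairing chosen after seeing the data. The block changed none of these calls by 1.5 times. Of 132 named genes called at LF3h, 75 kept their call and direction in every alternative run that held their probe set, and none reversed. All 30 of the largest rises and falls kept theirs on the same terms. Not every run held every gene. Without the _s_at, _x_at and _a_at probe sets, 93 genes kept the call and 3 lost it. The others, among them Hspa1b, Hsph1, Kctd14, Ins2 and Cyp1a1, were not in that run. Quantile scaling and median centring moved the median of all probe sets by 0.021 and 0.028. The 2 arrays of 1 pool measure array error only, so how far a pool of 20 other mice would differ is not known.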
